A study of Mus musculus with 6 samples.

Results

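The liver transcriptome of mice on a high-fat diet that had received JT003 was compared with that of mice on the same diet without it, to ask which genes stood at another level after treatment. JT003 is a peptide designed from the active region of the hormone adiponectin, and it acts on both adiponectin receptors, AdipoR1 and AdipoR2. The comparison took 2 of the 6 liver RNA libraries of the series, JT003-HFD and HFD, chosen by their labels, and 13453 of the 18444 listed genes, namely those with at least 10 reads in either library. All mice were male, of the strain C57BL/6 in the labels and C57BL/6J in the methods, with an age of 6 to 8 weeks in the labels, which do not say whether this was the age at the start of the diet. The HFD library is labelled NASH (non-alcoholic steatohepatitis, a fatty liver with inflammation and cell injury), and the JT003-HFD library is labelled NASH after treatment with JT003. According to the methods, mice were fed the diet for 16 weeks and JT003 was injected into the peritoneum daily for 4 weeks at 500 µg/kg, with 6 mice per group and a fast of 8 h before the livers were taken. The methods also describe a regime in which a methionine- and choline-deficient diet followed the high-fat diet, while the library titles name the high-fat diet alone. Whether the HFD mice were injected with vehicle, whether a library holds the RNA of 1 mouse or of several, and the time of day of sampling were not stated in the sources used here. The other libraries included a control on the diet that the paper calls standard (SD, with CD in its title) and an oil-treated control (Oil). The rest were a liver made fibrotic with carbon tetrachloride (CCl4) and a CCl4 liver treated with JT003 (JT003-Fibrosis).

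Adiponectin is released by fat cells and acts on hepatocytes through AdipoR1, which signals mainly through the kinase AMPK, and AdipoR2, which is linked mainly to the nuclear receptor PPARα. PPARα switches on genes of fatty acid oxidation during fasting. The endoplasmic reticulum (ER), where secreted proteins are folded, answers an overload of unfolded protein by raising its chaperones through the transcription factors ATF6, XBP1 and ATF4, a reaction known as the unfolded protein response and often described in fatty liver.

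A gene was counted as past 2-fold when its log2 ratio of JT003-HFD over HFD, computed from reads scaled to the library totals with a prior count of 2, was at least 1 in size and its exact 95% Clopper-Pearson counting interval did not include 0. By this rule 281 genes (2.09% of those compared) were higher and 266 (1.98%) were lower after JT003, in all 4.07%. The totals were 19724526 reads in HFD and 19849163 in JT003-HFD, and the log2 ratios centred on a median of 0.01, with 5% of genes below -0.71 and 5% above 0.73. With 1 library per condition there was no replicate check, so that the ratios compare 2 libraries and not 2 conditions. The intervals cover counting error only and not the spread between livers. They may be too narrow even for counting error, since reads that carry no molecular identifier may be copies of the same molecule. As a yardstick, the same rule applied to the control livers SD and Oil, neither of which received JT003 or the high-fat diet, put 1419 of 13302 genes (10.7%) past 2-fold. By the methods these are controls of different experiments, SD of the diet and Oil, injected with corn oil, of CCl4. Their differences thus include those of treatment and experiment besides those between like livers. Of the genes past 2-fold after JT003, 439 were also compared between Oil and SD, and 86 of them (19.6%) differed at least as much between those controls. In bulk tissue, fewer cells of a type and less RNA per cell cannot be told apart.

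**Figure D1:**
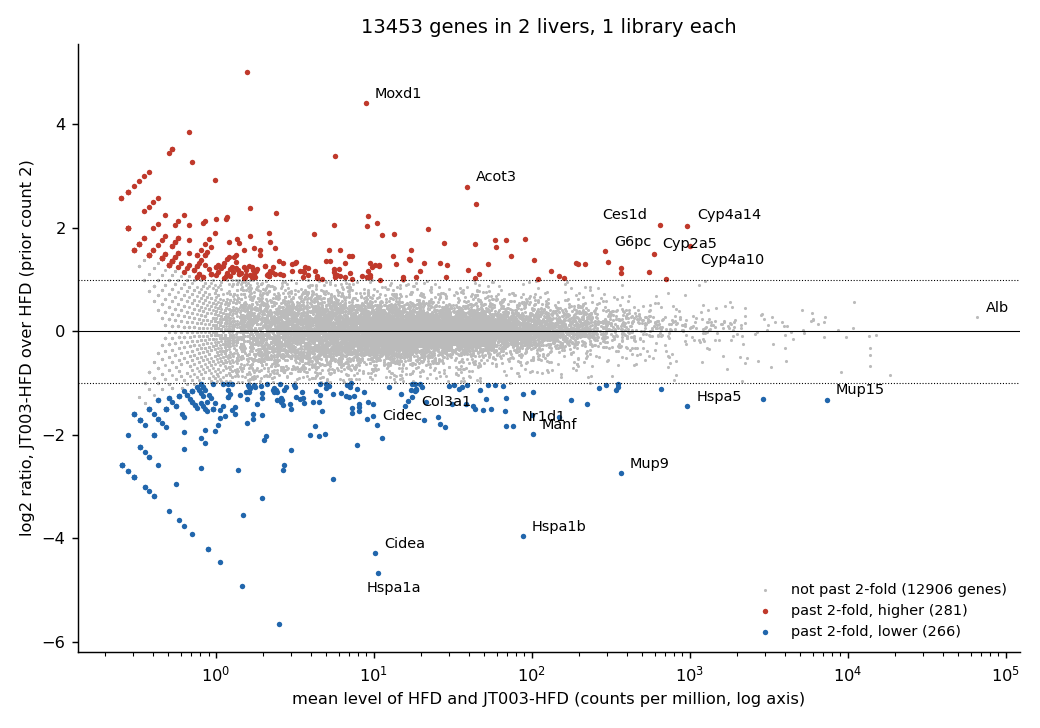
Each point is a gene, with its mean level in both libraries in CPM on the log x axis and its log2 ratio of JT003-HFD over HFD on the y axis. The 281 genes past 2-fold higher (red) and the 266 lower (blue) lie at all levels, and dotted lines mark a log2 ratio of 1 and -1.

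The genes past 2-fold were mostly weakly expressed, with fewer than 100 reads in the higher library in 190 of the higher and 169 of the lower genes. Of the 2843 genes with at least 1000 reads in the higher library, 2.22% were past 2-fold, against 9.49% of the 3783 genes with 10 to 99 reads. Together the higher genes made up 4544 CPM (counts scaled to 1e6 reads) in HFD and 12560 CPM in JT003-HFD. The lower genes made up 23990 CPM in HFD and 9463 CPM in JT003-HFD, and the urinary protein genes Mup15 and Mup17 held a large part of these.

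Chaperones of the ER mostly had ratios below 0. Of 32 genes for chaperones and folding enzymes of the ER, 5 were past 2-fold lower and 0 higher, and the median log2 ratio was -0.43 against 0.01 for all genes. In this group 27 ratios were below 0, and 22 had an interval wholly below 0. Hspa5, which encodes BiP, the main chaperone of the ER lumen, had 8141 reads in SD, 27926 in HFD and 10330 in JT003-HFD. Its log2 ratio of JT003-HFD over HFD was -1.44 (95% counting interval -1.48 to -1.41). HFD thus held the highest of these 3 values, and JT003-HFD lay near SD. The HFD library is shared by any comparison with SD, so SD values are given beside the others and not tested. Manf, a secreted factor induced by ER stress, had 585, 3219 and 814 reads in the same order and a log2 ratio of -1.99 (-2.11 to -1.88). Sdf2l1, a partner of BiP, had 138, 879 and 243 reads. Its log2 ratio was -1.86 (-2.07 to -1.66). Creld2, a disulfide isomerase, and Hyou1, a large chaperone that releases nucleotide from BiP, followed with -1.82 and -1.41. Hsp90b1, the ER form of HSP90, was not past 2-fold, with 8059, 19298 and 13020 reads and a log2 ratio of -0.58.

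Downstream of the chaperones, 39 genes of ER-associated degradation, protein translocation and export had 2 members past 2-fold lower, 0 higher and a median log2 ratio of -0.20, with 27 intervals wholly below 0. The members past 2-fold were Syvn1, the ubiquitin ligase HRD1 that marks misfolded proteins, with 1533, 4490 and 1438 reads in SD, HFD and JT003-HFD (log2 ratio -1.65, -1.74 to -1.57), and Derl3, a channel-associated protein of the same pathway, with 117, 497 and 225 reads (log2 ratio -1.15). Sel1l, the partner of HRD1, had a log2 ratio of -0.43.

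The ER stress element is the promoter sequence through which ATF6 acts together with the factor NF-Y, and it is written as CCAAT, any 9 bases, then CCACG. The stretch of 250 bases before to 50 bases after the start of each gene, taken from RefSeq (build GRCm38.p6), was searched for it on both strands, and promoters were found for 10698 of the genes compared. The element was present in 21 of these genes (0.196%), in 6 of 201 genes past 2-fold lower (2.99%) and in 0 of 208 genes past 2-fold higher. The promoter stretches of those 6 genes, and of 2 chaperone genes with smaller differences, are printed from 5′ to 3′ on the strand of the gene, with the element in capitals, to show where the shared letters lie. Creld2 and Alg12 read away from each other, and the stretches printed for them are the 2 strands of the same bases.
Creld2 (chr15:88819505-88819553, plus strand): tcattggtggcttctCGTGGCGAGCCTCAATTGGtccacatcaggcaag
Alg12 (chr15:88819505-88819553, minus strand): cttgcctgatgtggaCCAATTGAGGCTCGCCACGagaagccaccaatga
Xlr3a (chrX:73097150-73097198, minus strand): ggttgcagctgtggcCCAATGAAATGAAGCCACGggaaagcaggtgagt
Syvn1 (chr19:6046517-6046565, plus strand): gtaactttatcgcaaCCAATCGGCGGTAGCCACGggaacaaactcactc
Hspa5 (chr2:34772010-34772058, plus strand): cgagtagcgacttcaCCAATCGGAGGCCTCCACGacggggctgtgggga
Derl3 (chr10:75893227-75893275, plus strand): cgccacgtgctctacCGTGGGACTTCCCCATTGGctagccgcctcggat
Calr (chr8:84847060-84847108, minus strand): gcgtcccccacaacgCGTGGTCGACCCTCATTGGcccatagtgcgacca
Hsp90b1 (chr10:86705518-86705671, minus strand): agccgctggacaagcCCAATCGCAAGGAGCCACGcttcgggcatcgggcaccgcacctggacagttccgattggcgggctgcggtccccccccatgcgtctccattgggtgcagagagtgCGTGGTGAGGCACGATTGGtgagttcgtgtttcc

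All 21 genes with the element were followed, whatever their role, since the letters of the promoter do not depend on the reads. Of these, 20 had a log2 ratio below 0 and 1 (Adcy3, 22 and 23 reads) above it, and the median log2 ratio was -0.45 against 0.01 for all genes compared. Past 2-fold lower were 6 of the 21 (28.6%), against 1.98% of all genes, and 14 had an interval wholly below 0. Alg12, which adds mannose to the glycan of secreted proteins, had 129, 237 and 105 reads in SD, HFD and JT003-HFD and a log2 ratio of -1.17 (-1.53 to -0.85). Its neighbour Creld2, which shares the element, had 435, 2126 and 603 reads. Both genes of the pair were thus past 2-fold lower after JT003. Calr, which encodes the lectin chaperone calreticulin, and Hsp90b1 lay at -0.62 and -0.58. Xlr3a is one of several near-identical genes on the X chromosome, and the split of its reads among them is uncertain. The 21 include 7 of the 25 chaperone genes with a promoter and 2 of 28 genes of ER-associated degradation, translocation and export. The set is thus partly those lists again. Of its members past 2-fold lower, Creld2 and Hspa5 are on the chaperone list and Syvn1 and Derl3 on the other. The element is a match of letters and was not tested as a binding site. Among genes with the heat shock element (GAANNTTCNNGAA, searched on both strands), 3 of 61 (4.92%) were past 2-fold lower and the median log2 ratio was -0.05.

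**Figure D2:**
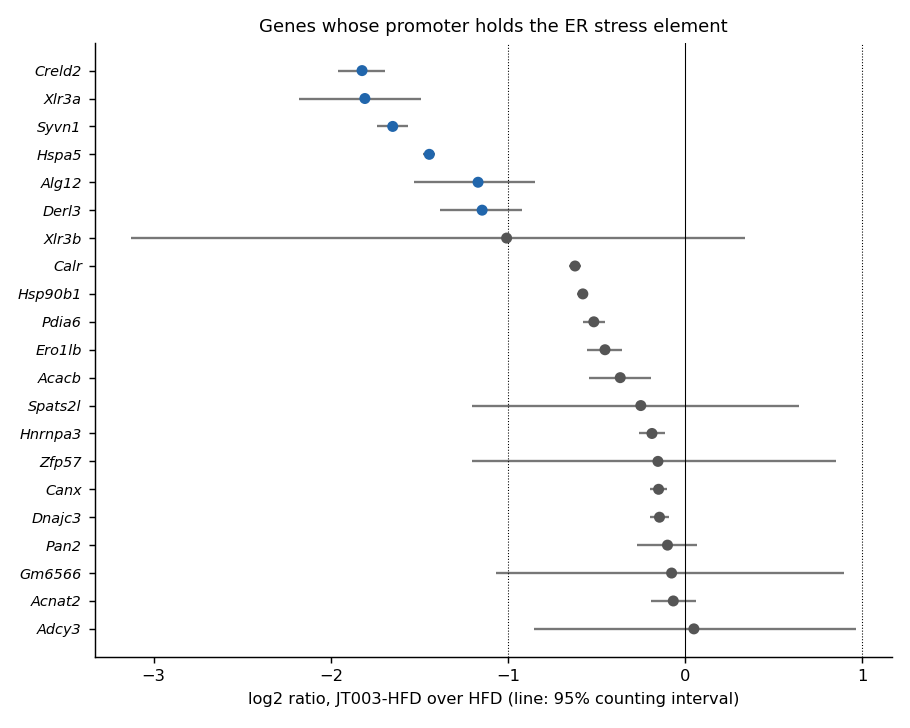
Log2 ratio of JT003-HFD over HFD (points) with its 95% counting interval (lines) for the 21 compared genes whose promoter holds the ER stress element. The 6 blue points are past 2-fold lower, and 20 of 21 points lie left of 0.

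The regulators of the response moved less as a group than its chaperones. Of 30 sensors, transcription factors and targets of the unfolded protein and integrated stress responses, 4 were past 2-fold lower, 0 higher, and the median log2 ratio was -0.09. Ddit3, which encodes the pro-apoptotic factor CHOP, had 62 reads in SD, 273 in HFD and 84 in JT003-HFD, a log2 ratio of -1.69 (-2.08 to -1.35). The others past 2-fold were Ddit4, an inhibitor of mTORC1 (-1.38), Mthfd2, a mitochondrial folate enzyme (-1.18, on 43 and 18 reads), and Creb3l2, a membrane-bound transcription factor of the secretory pathway (-1.07). Xbp1 had 3720, 5850 and 3681 reads and a log2 ratio of -0.68, under 2-fold. Atf4 went the other way, with 1359 reads in HFD and 1620 in JT003-HFD (log2 ratio 0.24, 0.14 to 0.35), and Ern1, the sensor IRE1α, had 0.18. The sensors Atf6 and Eif2ak3 (PERK) had log2 ratios of 0.21 and -0.08.

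The cytosolic heat shock genes included Hspa1a, whose fall exceeded that of any other gene reaching 100 reads. Of 23 genes, 7 were past 2-fold lower and 0 higher, and the median log2 ratio was -0.65, with 19 intervals wholly below 0. Hspa1b had 2320 reads in SD, 3258 in HFD, 209 in JT003-HFD and 531 in Oil. Hspa1a, its near-identical neighbour, had 97, 405, 14 and 39. Both encode the inducible HSP70, their reads can be exchanged in counting, and summed they had a log2 ratio of -4.03 (-4.25 to -3.85) in JT003-HFD over HFD. The control Oil also lay far below SD, so HSP70 transcripts differed widely between livers that never received JT003. The co-chaperones Hsph1, Bag3 and Dnajb1 had log2 ratios of -1.62, -1.55 and -1.44, and Hspb1, the small heat shock protein HSP27, had -1.03. Hsf1, the transcription factor of the heat shock response, had 295 reads in HFD and 313 in JT003-HFD. Its log2 ratio was 0.08. In Oil over SD, the median of the same list was -0.33 and 4 members were past 2-fold, while the median of the ER chaperones was 0.16 with 1 member past 2-fold.

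**Figure D3:**
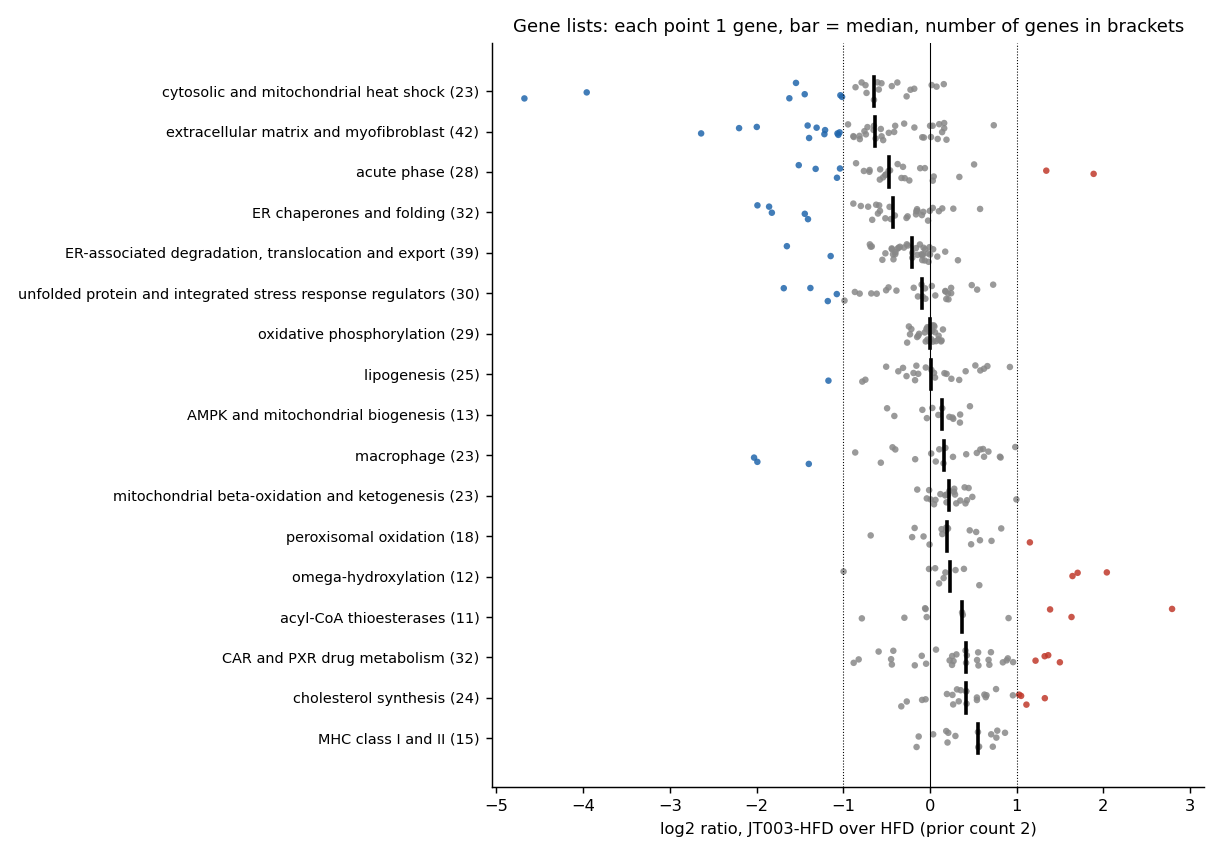
Log2 ratio of JT003-HFD over HFD for the members of 17 gene lists, each point a gene and each bar the list median, with points past 2-fold in red (higher) or blue (lower). The heat shock list has the lowest median (-0.65) and the list of major histocompatibility genes the highest (0.55) of the lists drawn, while oxidative phosphorylation runs from -0.26 to 0.15.

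The receptors themselves differed little. Adipor1 had 2293 reads in SD, 2000 in HFD and 2328 in JT003-HFD, a log2 ratio of 0.21 (0.12 to 0.30). Adipor2 had 13356, 13358 and 10521 reads, a log2 ratio of -0.35 (-0.39 to -0.32). Of 6 genes for receptors and their adaptors and of 13 genes for AMPK subunits, upstream kinases and mitochondrial biogenesis, 0 were past 2-fold in either direction, with medians of 0.12 and 0.14. Prkaa1 and Prkaa2, the catalytic subunits of AMPK, had log2 ratios of 0.14 and 0.35, and Ppargc1a, the coactivator PGC-1α, had -0.49 on 236 and 168 reads. These are transcript levels and say nothing of the phosphorylation of the kinase.

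Genes of microsomal and peroxisomal fatty acid oxidation, classical targets of PPARα in mouse liver, included several past 2-fold higher after JT003. Cyp4a14, which oxidizes fatty acids at the omega end, had 206802 reads in SD, 7401 in HFD and 30625 in JT003-HFD, a log2 ratio of 2.04 and 4.11-fold higher. Cyp4a10 had 84554, 9592 and 30161 reads and a log2 ratio of 1.64 (1.61 to 1.68). Both lay lowest in HFD of all 6 libraries, and JT003-HFD stayed below SD and Oil. Cyp4a31 was past 2-fold as well (1.70), so that 3 of 12 omega-hydroxylation genes were higher and 0 lower. Cyp4a12a, the male-biased member, had 6184 and 3118 reads, just short of the limit. The list median was 0.24, and the 3 Cyp4a genes stood apart from the rest.

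The acyl-CoA thioesterases, which release free fatty acids from coenzyme A, had 3 of 11 genes past 2-fold higher and a median of 0.37. In Oil over SD 5 of the 11 were past 2-fold and the median was -0.62, so this list differed more between the control livers. Acot3 had 840, 192 and 1350 reads in SD, HFD and JT003-HFD (log2 ratio 2.79, 2.59 to 3.03), above SD. Acot4 and Acot1, its neighbours in the same cluster, had log2 ratios of 1.63 and 1.39. Of 18 peroxisomal genes, Ehhadh, the bifunctional enzyme of peroxisomal beta-oxidation, was past 2-fold higher with 161285, 6754 and 15107 reads (log2 ratio 1.15), and the list median was 0.19. Mitochondrial beta-oxidation and ketogenesis had 0 of 23 genes past 2-fold, but 20 ratios above 0, 17 intervals wholly above 0 and a median of 0.22. Cpt1a, the carnitine transferase that admits fatty acids to mitochondria, had 12422 and 15148 reads in HFD and JT003-HFD, and a log2 ratio of 0.28. Pdk4, which spares glucose by inhibiting pyruvate dehydrogenase, lay just under the limit with 128 and 259 reads (log2 ratio 1.00). Ppara itself had 9889 and 12188 reads, with a log2 ratio of 0.29.

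Another list held 17 genes, namely PPAR receptors with Ppara among them, the partners Rxra and Ppargc1a, and other genes responsive to PPARα. Of these, 3 were past 2-fold higher (Fgf21, Txnip and Retsat) and 2 lower (Cidea and Ucp3). Fgf21, a hormone of fasting, had 691, 73 and 205 reads in SD, HFD and JT003-HFD, a log2 ratio of 1.46 (1.09 to 1.89). Retsat, a retinol saturase, had 46809, 9277 and 18901 reads, a log2 ratio of 1.02. Txnip, an inhibitor of thioredoxin, had 3886, 1885 and 3996 reads and a log2 ratio of 1.07. Gm15441, the antisense gene of Txnip, had 5570, 95 and 354 reads and a log2 ratio of 1.87, and because the strand setting of the counting was not given, reads of the pair cannot be told apart with certainty. Ucp3, a mitochondrial carrier, had 12 reads in HFD and 1 in JT003-HFD. In this list 7 of the 17 intervals lay wholly below 0 and 8 wholly above.

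Cidea and Cidec, proteins that fuse lipid droplets into larger ones, were the members of the droplet list past 2-fold lower. Cidea, which is scarce in lean liver, had 4 reads in SD, 386 in HFD and 18 in JT003-HFD, with 9, 5 and 2 in Oil, CCl4 and JT003-Fibrosis. Its log2 ratio was -4.29 (-5.20 to -3.75). It thus stood out in the HFD library among all 6. Cidec had 5423, 802 and 233 reads in SD, HFD and JT003-HFD, a log2 ratio of -1.78 (-2.01 to -1.58), and here SD was the highest. Plin2, which coats droplets, had 15017 and 12516 reads in HFD and JT003-HFD (log2 ratio -0.27). Of 18 droplet genes, 2 were past 2-fold lower and 0 higher, 8 intervals lay wholly below 0 and 7 wholly above, and the median was -0.04. In Oil over SD 7 of 17 droplet genes were past 2-fold and the median was -0.25. Cidea is also a fat cell gene, as is Cfd, the protease adipsin, with 2, 454 and 166 reads. Of the 9 adipocyte markers only 4 had at least 10 reads. The defining marker Adipoq was at 0 in SD, HFD and JT003-HFD, Plin1 had 1, 1 and 0 reads, and Fabp4 had 260, 164 and 102. Summed over the measured markers, the level was 2064 CPM in HFD and 2471 CPM in JT003-HFD, nearly all of it Car3, which hepatocytes express too.

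**Figure D4:**
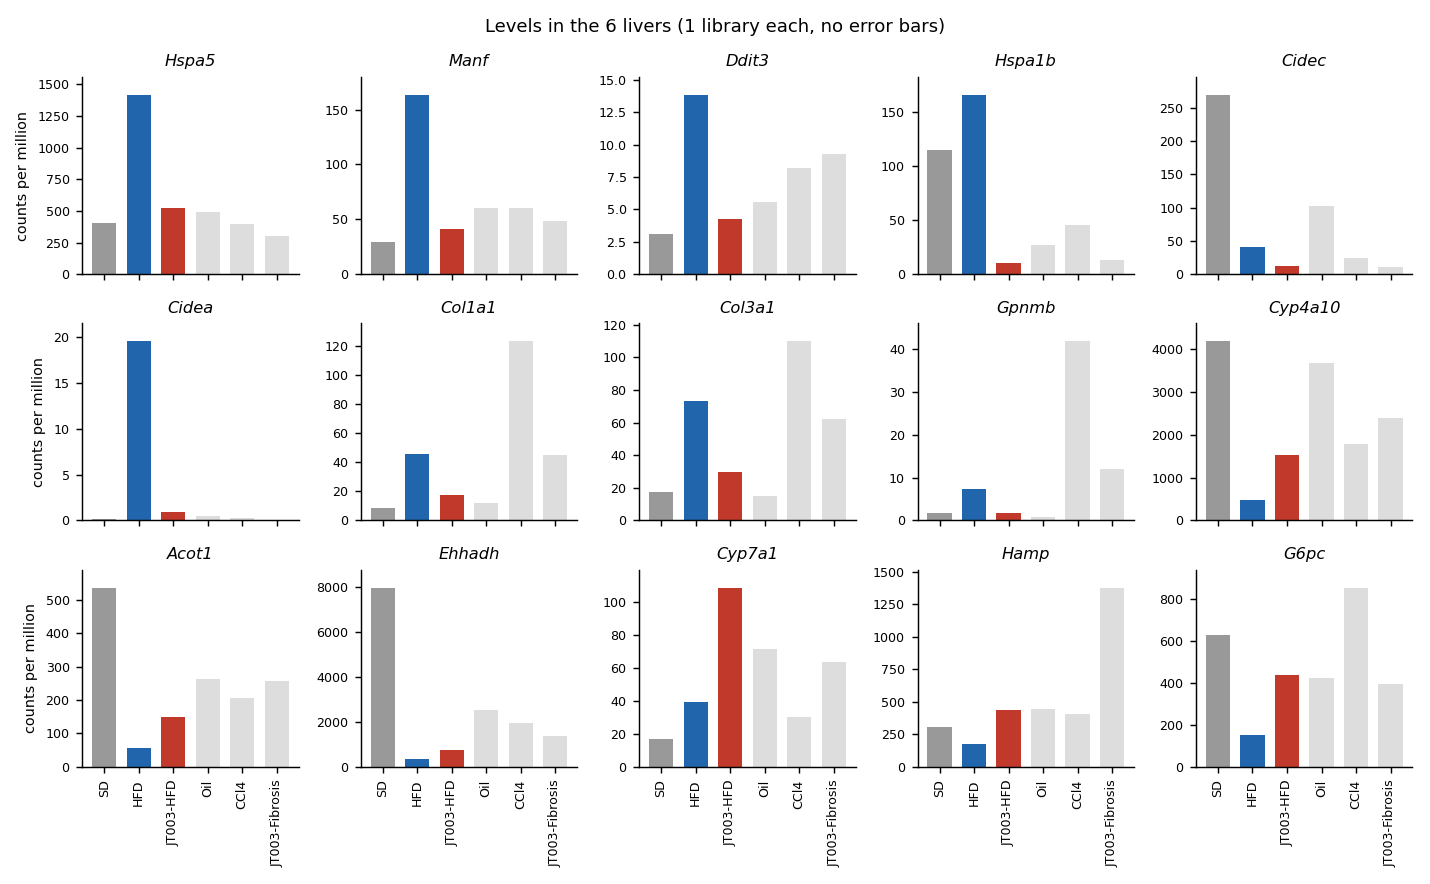
Levels of 15 genes in the 6 livers in CPM, 1 bar per library, with SD in dark gray, HFD in blue, JT003-HFD in red and the 3 libraries of the CCl4 experiment in light gray. Hspa5 and Cidea were highest in HFD, and Cyp4a10, Acot1 and Ehhadh were lowest there.

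Lipogenic genes had ratios on both sides of 0. Of 25 lipogenic genes, 1 was past 2-fold lower and 0 higher, and the median was 0.02. Elovl3, an elongase of very long fatty acids, had 14013, 2775 and 1239 reads in SD, HFD and JT003-HFD, a log2 ratio of -1.17. Acaca and Fasn, the rate-limiting carboxylase and the synthase, had log2 ratios of 0.62 and 0.66 and Scd1, the main desaturase, had -0.51, so that neighbouring steps lay on opposite sides of 0. Of 18 fatty acid uptake genes, 0 were past 2-fold, and Cd36, a fatty acid translocase, had 541, 2576 and 2375 reads.

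Cholesterol synthesis lay higher. Of 24 genes, 4 were past 2-fold higher and 0 lower, 20 intervals lay wholly above 0 and the median log2 ratio was 0.42. Idi1, an enzyme of the isoprenoid steps, had 565 reads in SD, 579 in HFD and 1262 in JT003-HFD (log2 ratio 1.11, 0.97 to 1.26). Sqle and Msmo1, enzymes of the sterol steps, had log2 ratios of 1.05 and 1.03. Of 21 bile acid genes, 2 were past 2-fold higher and 0 lower, with a median of 0.27. In Oil over SD 6 of the 21 were past 2-fold and the median was 0.20. Cyp7a1, the rate-limiting enzyme of bile acid synthesis, had 339, 781 and 2160 reads in SD, HFD and JT003-HFD, a log2 ratio of 1.46 (1.34 to 1.58), and JT003-HFD was its highest level among the 6 libraries. Slco1a4, an uptake transporter, had a log2 ratio of 1.33. Among 20 apolipoprotein genes, Apoa4 was past 2-fold lower (17654 and 8232 reads, log2 ratio -1.11).

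Among 22 genes of glucose output and glycogen, G6pc, the catalytic subunit of glucose-6-phosphatase, was past 2-fold higher with 2934 and 8632 reads (log2 ratio 1.55), and Pfkfb3, which stimulates glycolysis, was past 2-fold lower with 1272 and 450 reads (log2 ratio -1.50). Pck1, the other gatekeeper of gluconeogenesis, had 42099 and 47208 reads, a log2 ratio of 0.16. Igfbp1, a secreted binding protein suppressed by insulin, was the single gene of 16 in insulin and PI3K-Akt signaling past 2-fold (596 and 1488 reads, log2 ratio 1.31). Its relatives Igfbp2 and Igfbp5 had log2 ratios of 1.13 and 2.04. Igfbp6 had 0 reads in HFD and 21 in JT003-HFD. It was 6.96-fold higher when 3 reads are taken as the limit that a count of 0 allows and the other count as exact. Its counting interval of the log2 ratio began at 2.37. In the list of 32 liver-derived secreted factors, 6 were past 2-fold higher, of which 4 were these binding proteins, and 3 were lower (Gpnmb, Fst and Serpina12). Msln, a marker of the mesothelium that covers the liver, had 3 reads in HFD, 36 in JT003-HFD and 118 in Oil. Igfbp5 had 69, 291 and 567 reads in the same order, and Igfbp6 had 57 in Oil. The part of mesothelium in these ratios was not tested.

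Drug-metabolizing genes under the nuclear receptors CAR and PXR had 4 of 32 members past 2-fold higher, 0 lower and a median of 0.41. Nr1i3, which encodes CAR, had 1572, 2139 and 5387 reads in SD, HFD and JT003-HFD, a log2 ratio of 1.32 (1.25 to 1.40). Cyp2a5, a coumarin hydroxylase, had 670, 6101 and 17345 reads, a log2 ratio between 1.46 and 1.54, and Por, the electron donor of all microsomal P450 enzymes, had 11370, 4384 and 10261 reads, a log2 ratio of 1.22. JT003-HFD was thus above both SD and HFD for CAR and Cyp2a5, but between them for Por. The fourth was Abcb1a (1.36). In Oil over SD 14 of 30 members were past 2-fold, so that this list varied more between the control livers. Cyp2e1, an ethanol-inducible P450, gained 174607 to 258836 reads, a log2 ratio of 0.56, and it had one of the 10 largest gains in CPM.

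Genes that male and female livers express differently did not all move one way. Of 22 female-biased genes, 12 had at least 10 reads in either library. Of these 12, 3 were past 2-fold higher (Acot3, Nipal1 and Fmo2) and 0 lower. Their median was 0.90, with 5 intervals wholly above 0 and 3 wholly below. Nipal1 had 9 and 56 reads, and Fmo2, a flavin monooxygenase, had 138 and 384 (log2 ratio 1.45). Of 24 male-biased genes, only Elovl3 was past 2-fold, lower, and the median was 0.02. The major urinary proteins, pheromone carriers made by male liver, are a family of near-identical genes whose reads cannot be placed with certainty. Their 21 genes summed to 2448545 reads in HFD, 12.4% of the library, and to 1701578 reads in JT003-HFD, 8.57%, a log2 ratio of -0.53. Of them, 16 had a ratio below 0 and 5 above. Mup9, Mup15 and Mup17 were past 2-fold lower, and their sum had a log2 ratio of -1.35, while Mup13 was past 2-fold higher on 26 and 65 reads. The control SD held 6.10% of its reads in these genes and Oil 10.5%. Mup19 lost the most of all genes on the CPM scale (469505 and 262778 reads, log2 ratio -0.85), and 7 of the 10 largest CPM losses were Mup genes, with Fga, Fgb and Bhmt as the others. The largest CPM gain was that of Alb, albumin, which took 5.97% of the reads in HFD and 7.20% in JT003-HFD, a log2 ratio of 0.27.

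The extracellular matrix and myofibroblast list had the most members past 2-fold lower, 11 of 42, with 0 higher, 26 intervals wholly below 0 and a median of -0.64. In Oil over SD 11 of 41 members were past 2-fold and the median was -0.16. Col1a1, a chain of fibrillar collagen I, had 178 reads in SD, 899 in HFD and 343 in JT003-HFD, a log2 ratio of -1.39 (-1.58 to -1.22). Col3a1, collagen III, had 352, 1449 and 588 reads, a log2 ratio of -1.31 (-1.45 to -1.17), and Col1a2 had -1.06. In all 3, HFD held the highest of these values and JT003-HFD stayed above SD. Lox, which crosslinks collagen, had 29 reads in HFD and 3 in JT003-HFD, too few for a close ratio (log2 ratio -2.64, -5.64 to -1.59). Thbs1, thrombospondin, had 18, 125 and 30 reads, a log2 ratio of -2.00. Ctgf, a matricellular target of TGF-β and YAP, had 384, 286 and 107 reads (log2 ratio -1.41). For Ctgf, JT003-HFD lay below SD. Fn1 and Col18a1, which hepatocytes express strongly, had log2 ratios of 0.16 and 0.01, and through them the summed level of the list was 3701 CPM in HFD and 3658 CPM in JT003-HFD. Serpinh1, the collagen chaperone HSP47, which was named after its values were seen, had 135, 468 and 213 reads, a log2 ratio of -1.14.

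Macrophage markers divided. Of 23, 3 were past 2-fold lower and 0 higher, while the median was 0.16. Gpnmb, Mmp12 and Trem2, genes of lipid-laden macrophages, had 144, 156 and 53 reads in HFD and 34, 38 and 19 in JT003-HFD, and log2 ratios of -2.03, -1.99 and -1.40. Adgre1 and Clec4f, markers of macrophages in general and of Kupffer cells, had 356 and 1466 reads in HFD and 553 and 2207 in JT003-HFD, with log2 ratios of 0.62 and 0.58. A further 3 Kupffer cell genes, named after their values were seen, also had ratios above 0: Timd4 (0.98), Marco (0.81) and Cd163 (0.81). The summed level of the macrophage markers was 666 CPM in HFD and 801 CPM in JT003-HFD, and the part of cell numbers in these ratios was not tested. In Oil over SD the list median was -1.72, a larger difference than any median of these lists after JT003.

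Immune genes differed by group. Of 15 major histocompatibility genes, 0 were past 2-fold, 12 intervals were wholly above 0 and the median was 0.55. The class II genes, named after their values were seen, were Cd74 (1552 and 2582 reads, log2 ratio 0.72), H2-Aa (0.77), H2-Ab1 (0.78) and H2-Eb1 (0.87). Among 32 interferon-inducible genes, Gbp2 and Tgtp1, GTPases that act against intracellular microbes, were past 2-fold higher (1.29 and 1.27), while Ifit1 and Isg15, typical of type I interferon, had -0.36 and -0.72. Of 16 neutrophil and lymphocyte markers, Cd3e and Ms4a1 were past 2-fold higher on at most 13 reads and Elane lower on 13 and 1 reads. Elane and its chromosomal neighbours Prtn3 (72 and 6 reads, log2 ratio -3.22) and Cfd formed a run of 3 adjacent genes past 2-fold lower. Of 20 chemokines and cytokines, Ccl2, which attracts monocytes, was past 2-fold lower on 45 and 17 reads. The red blood cell markers, with 0 of 6 past 2-fold, had a median of 0.55 and summed levels of 334 CPM in HFD and 400.5 CPM in JT003-HFD, and their part in the other results was not tested. The median of 18 endothelial genes was 0.23 with 0 past 2-fold, and that of 19 hepatocyte genes 0.01 with 1 past 2-fold (Nr1i3).

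Most acute phase genes had ratios below 0. Of 28 genes, 4 were past 2-fold lower, 2 higher, 22 intervals lay wholly below 0, 6 wholly above, and the median was -0.47. In Oil over SD 9 of the 28 were past 2-fold and the median was -0.32. Saa1 and Saa2, the inducible serum amyloids, are near-identical and had a summed log2 ratio of -1.15 (-1.20 to -1.11). Lcn2, an iron-scavenging lipocalin, had 712, 1442 and 507 reads in SD, HFD and JT003-HFD, a log2 ratio of -1.51, and Steap4, a metalloreductase, had -1.04. The fibrinogen chains Fga and Fgb had log2 ratios of -0.57 and -0.70 at 96723 and 79680 reads in HFD. The members past 2-fold higher were Hamp and Hamp2, which encode hepcidin, the hormone that limits iron release. Hamp had 6106, 3388 and 8642 reads (log2 ratio 1.34, 1.28 to 1.40). Id1, a target of the bone morphogenetic protein signal that drives hepcidin, had 204, 51 and 157 reads (log2 ratio 1.58, 1.15 to 2.10). These were the 3 genes of the 16 on the iron list past 2-fold, and 0 were lower.

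Clock genes differed between the libraries, whose hour of sampling was not stated. Cry1, a repressor of the clock, had 68, 112 and 418 reads in SD, HFD and JT003-HFD, a log2 ratio of 1.87 (1.59 to 2.20). Nr1d1, the repressor REV-ERBα, had 2649, 2342 and 661 reads, a log2 ratio of -1.83 (-1.96 to -1.71), and Bhlhe41, the repressor DEC2, had -1.53. Dbp, a classical clock output, had 398, 1738 and 977 reads, a log2 ratio of -0.84, and Arntl, which encodes BMAL1, had 195, 46 and 70, a log2 ratio of 0.58. Of 6 genes that peak with Bmal1, 2 were past 2-fold higher and 1 lower (Npas2, 12 and 1 reads). Of 12 that peak with Dbp and the Per genes, 2 were lower and 0 higher. Many metabolic genes named above, such as Cyp7a1 and the Cyp4a genes, are known to follow the time of day, and the part of time of day in their ratios was not tested.

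Among genes of growth arrest and cell death, the p53 targets had the most members past 2-fold. Cdkn1a, which encodes the cell cycle inhibitor p21, had 828, 295 and 94 reads in SD, HFD and JT003-HFD, a log2 ratio of -1.64 (-2.01 to -1.32). Of 18 p53 targets, 3 were past 2-fold lower (Cdkn1a, Eda2r and Phlda3) and 1 higher, Bbc3, which encodes the pro-apoptotic protein PUMA (1.34), and the median was -0.29. Of 23 apoptosis genes, 1 was higher and 2 lower, all of them shared with other lists (Bbc3, Cidea and Cidec). Of 21 mitosis genes, 0 were past 2-fold, at levels that summed to 25.8 CPM in HFD and 28.3 CPM in JT003-HFD, and of 22 genes of replication and G1, Tk1 and Rrm2, which supply nucleotides, were higher (1.38 and 1.21). Of 23 immediate early genes, only Egr2 was past 2-fold, lower, on 38 and 12 reads.

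Several groups of the liver's basic metabolism had medians near 0 and few or no members past 2-fold. Of 29 subunits of oxidative phosphorylation, 0 were past 2-fold, the ratios ran from -0.26 to 0.15 and the median was 0.00. Of 20 genes of mitochondrial dynamics and ER contact (median 0.04), 24 NRF2 targets (0.00) and 17 urea cycle and periportal genes (-0.07), 0 were past 2-fold, although single ratios ran from -0.81 to 0.63, from -0.88 to 0.45 and from -0.99 to 0.53. Of 20 pericentral genes and Wnt targets, 0 were higher and 1 was lower (Slc1a4, median 0.13). Of 23 retinoid and steroid genes, 1 was lower (Cyp26a1, 44 and 20 reads, median 0.14), and of 14 bile duct markers, Krt19 was higher on 7 and 39 reads and Anxa2 lower on 504 and 229. The median of the bile duct markers was -0.29, with 8 ratios below 0 and 6 above. Of the pancreatic acinar markers 1 and of the skeletal muscle markers 0 had at least 10 reads.

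Of the 33 measured genes for which the study ran qPCR in mouse liver, 1 was past 2-fold higher (G6pc) and 2 lower (Hspa5 and Ddit3), with a median of 0.06. Whether those genes were chosen with these libraries in view was not stated. The values of the others stayed within 2-fold in this pair of libraries: the antioxidant enzymes Sod1, Sod2 and Cat had log2 ratios of 0.06, 0.20 and -0.01, Pparg had -0.16 on 275 and 248 reads, Bax had -0.26, and the cytokine gene Il1b had 68 and 65 reads.

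Some of the largest single ratios belonged to genes that share reads with close relatives, and for these the family sum was computed. H2-Q8, a class Ib histocompatibility gene, had 18 reads in HFD and 208 in JT003-HFD, a log2 ratio of 3.38, while the 9 H2-Q genes summed to 27467 and 26326 reads, a log2 ratio of -0.07. Tmem254c had 269 and 1504 reads (2.47), but with Tmem254a and Tmem254b the sum was 6493 and 5115 reads, a log2 ratio of -0.35. Gm4070 had 63 and 303 reads (2.22), and together with Gvin1 its log2 ratio was 0.10. In the H2-Q family, H2-Q10 held 25160 of the reads in HFD, so that the sum could not show a rise of H2-Q8, and 6 of the 8 compared members had ratios above 0, such as H2-Q7 (0.88) and H2-Q4 (0.57). For Tmem254 and Gvin1 the sums stayed under 2-fold, but they too were held mostly by 1 member. Tmem254b had 6001 reads in HFD and 3343 in JT003-HFD, and Gvin1 had 970 and 813. These sums could thus show little of a rise of Tmem254c or Gm4070. Other sums were past it: the 4 genes Cyp4a10, Cyp4a14, Cyp4a31 and Cyp4a32 summed to a log2 ratio of 1.79, and Acot1 to Acot6 to 1.60. The Ces1 carboxylesterases, of which Ces1d had 4958 and 20807 reads (2.06), summed to 0.77, under 2-fold. In that family Ces1c held 30651 of the 47194 reads in HFD, and all 6 compared members had ratios above 0. Raet1e, a stress ligand of natural killer cells, had 100 and 19 reads, and its family also stood lower in the sum (-1.76).

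**Figure D5:**
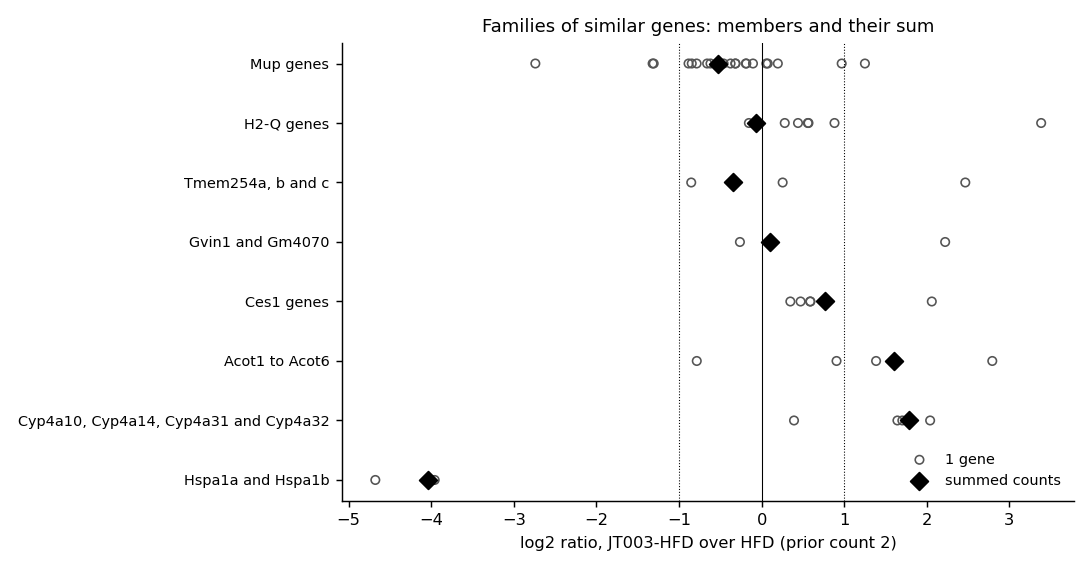
Log2 ratio of JT003-HFD over HFD for the single genes (open circles) and the summed counts (black diamonds) of 8 families of similar genes. The sums of the H2-Q, Tmem254 and Gvin1 families lie at -0.07, -0.35 and 0.10 although 1 member of each is above 2, whereas the Cyp4a and Acot sums lie above 1.5. In the H2-Q, Tmem254 and Gvin1 families another member holds most reads, so their sums show little of such a rise.

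The genes with the largest ratios and at least 100 reads included others outside the lists. Moxd1, a relative of dopamine beta-hydroxylase, had 950 reads in SD, 14 in HFD, 339 in JT003-HFD and 383 in Oil, and it was at 0 in CCl4 and JT003-Fibrosis (log2 ratio of JT003-HFD over HFD 4.41, 3.82 to 5.48). Sik1, a salt-inducible kinase, had 1123, 175 and 700 reads (1.98), Setdb2, a histone methyltransferase gene, had 99, 42 and 181 (2.05), and Lonrf3 had 115, 78 and 341 (2.09). Among the falls, Ntrk2, which encodes the neurotrophin receptor TrkB, had 61, 193 and 25 reads (-2.86), Obp2a, a lipocalin, had 26, 360 and 85 (-2.07), and Ly6d had 147, 133 and 36 (-1.84). At the limit of counting, the readthrough gene ChkbCpt1b had 0 and 63 reads, and Gm14430 had 99 and 0 reads. With 3 reads put for the 0, they were 20.9-fold higher and 33.2-fold lower. The ends of their counting intervals nearest to no change were log2 ratios of 4.04 and -4.73. Such genes overlap or resemble others, so their reads may have been assigned elsewhere in the library at 0. Along the chromosomes 27 runs of adjacent compared genes, 58 genes in all, were past 2-fold in the same direction, by gene order in RefSeq (GRCm38.p6). The longest, of 3 genes each, were the Acot and the Cyp4a clusters named above, Gm8221, Apol11b and Apol7e (higher) and Prtn3, Elane and Cfd (lower).

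The CCl4 experiment shares no library with this comparison. There, 709 of 13785 genes (5.14%) were past 2-fold higher and 492 (3.57%) lower in JT003-Fibrosis over CCl4. Of the genes higher after JT003 in HFD liver, 58 were also higher there, which is 20.6% of the former list and 8.18% of the latter, and of the lower genes 44 were, 16.5% and 8.94%. Genes past 2-fold higher in both were, among those named, Acot3, Sik1, Gm15441, Cyp2a5, Cyp7a1, Hamp, Fmo2 and Tgtp1. Genes lower in both included Hspa1a, Hspa1b, Gpnmb, Mmp12, Col1a1, Col1a2, Cidec, Cdkn1a, Derl3 and Elovl3. Of the 281 higher genes, 20 were past 2-fold lower in the CCl4 experiment, where 3.57% of all genes were. Of the 266 lower genes, 21 were past 2-fold higher there, where 5.14% of all genes were. Whether the overlap in either direction exceeds that of genes that vary between livers was not tested.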

How the data were processed

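For each library the authors deposited an expected count per gene (an estimated count without normalization, in which shared reads are split) and an FPKM value, a count scaled to transcript length and sequencing depth. The submitters' processing notes name HISAT, Bowtie2, RSEM and the mouse build mm9, without versions or roles. Per the labels, each condition has 1 library. The authors also deposited 4 comparison tables with fold changes and p-values, which were not used. Expected counts were rounded to whole numbers and scaled to library totals. The log2 ratio had a prior count of 2, and intervals were exact 95% Clopper-Pearson intervals. No p-value was computed. The rule was tested on simulated libraries with known changes and counting error only, so the test does not cover the spread between livers. Members, lists and tests were chosen with earlier results of these data known. Named genes were the 15 largest rises and falls past 2-fold with at least 100 counts, list members past 2-fold (at most 6) with the first 2 members of each of 52 lists, the 10 largest gains and losses in CPM, the receptors and qPCR genes, neighbouring genes, and genes with at most 3 counts in 1 library. Calculations used Python 3.11.15, numpy 2.4.6, pandas 2.3.3, scipy 1.17.1, R 4.3.3 with edgeR 4.0.16 (TMM scaling only) and matplotlib 3.10.9. RefSeq (GRCm38.p6) gave promoters and gene order, and 13428 of the 13453 compared genes were placed in it. Alternatives were other scalings, FPKM ratios, count limits, prior counts and call rules. Some list members are not reported here.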

Additional observations from a re-analysis of the deposited data

Results flagged for a closer look

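In 10 named genes the difference after JT003 was past 2-fold in the HFD liver and past 2-fold the opposite way in the CCl4 liver. Each direction rests on 1 library per side, and the difference between the models was not tested. Of these, 5 were higher in JT003-HFD over HFD and lower in JT003-Fibrosis over CCl4. G6pc had log2 ratios of 1.55 and -1.11, Fgf21 had 1.46 and -1.27, and Rrm2, a ribonucleotide reductase subunit of dividing cells, had 1.21 and -2.75. Msln, a marker of the mesothelium that covers the liver, had 2.92 on 3 and 36 reads and -1.40. H2-Q8 had 3.38 in the HFD liver, with 46 reads in CCl4 and 0 in JT003-Fibrosis. Its family sum did not follow it in the HFD liver, but H2-Q10 held most of those reads. The others were lower in JT003-HFD and higher in JT003-Fibrosis. Saa1 had log2 ratios of -1.07 and 1.40, Saa2 of -1.32 and 1.74 and Lcn2 of -1.51 and 1.90, so that 3 acute phase genes were among them. Mup17 had -1.31 in the HFD liver and 1.63 on 4 and 16 reads in the CCl4 liver. Prtn3, a protease of neutrophil granules, had -3.22 on 72 and 6 reads and 2.86 on 15 and 117 reads.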

How the results depend on the processing

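With 1 library per condition no library could be left out, and no paired analysis was possible because the labels give no replicate numbers. The 281 higher and 266 lower genes were 279 and 268 with TMM scaling, 281 and 266 with median-of-ratios scaling and 267 and 285 when the 50 most abundant genes were left out of the scaling. The count rule moved them more. Ratios of the deposited FPKM gave 226 and 230 genes with a pseudocount of 0.1 but 63 and 85 with a pseudocount of 1, which by construction shrinks low genes. At least 100 counts left 91 and 97 genes, a whole interval beyond 2-fold left 79 and 96, and 1.5-fold gave 728 and 679. A limit of 1 count (320 and 296), a prior count of 0.5 (302 and 278) and no interval condition (318 and 315) stayed within 1.5 times. The median log2 ratio of all genes ran from -0.03 to 0.01. No list median whose typical interval excluded 0, and no named gene past 2-fold, changed sign under the scalings, units, count limits and prior counts tried, but 97 of 235 named genes moved beyond their main counting interval under some alternative (121 of 1835 values, 62 of them with FPKM), as did 4 of 50 list medians. Depth limited genes under 100 reads, and liver-to-liver spread could not be estimated. Median log2 ratios by transcript length ran from -0.08 for the shortest to 0.09 for the longest of 4 equal groups.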

Other observations

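The genes given here were named after their values were seen and come from no fixed list. Smad9, a SMAD activated by receptors for bone morphogenetic proteins, had 563 reads in SD, 169 in HFD and 510 in JT003-HFD, a log2 ratio of JT003-HFD over HFD of 1.57 (1.33 to 1.84). Id3, a target of these proteins, had 1681, 472 and 1088 reads, a log2 ratio of 1.19 (1.04 to 1.35). Smad7, an inhibitory SMAD, had 0.73 and Bmp6, a bone morphogenetic protein, had 0.65, both under 2-fold. For Smad9 and Id3 the HFD library was thus the lowest of the 3, as it was for Id1 and Hamp. Cirbp, a cold-inducible RNA-binding protein, had 241, 106 and 227 reads, a log2 ratio of 1.08 (0.75 to 1.44), opposite to the heat shock genes. Wee1, a kinase that holds cells before mitosis and is under clock control, had 68, 235 and 594 reads, a log2 ratio of 1.32.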
